A study of Mus musculus with 6 samples.

Results

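The genes described here are 8 genes of secretory epithelium and of the choroid plexus, found among the probes that the study selected in the prelimbic cortex (PL) of stressed mice. They are Vmo1, Bpifb4, Bpil3, Psapl1 and Muc1, known from secretory epithelium of the olfactory mucosa and other mucosae, and Wfdc2, Ttr and Aqp1, known from the airway or the choroid plexus. Each was read from 1 probe of a mouse bead array with 25697 probes, of which 899 carry a gene name here because the study listed them as changed by at least 1.2-fold, so that these are 8 of 884 named genes. All 8 were listed for CRST+RS5 against CRST, and Ttr was listed for CRST against CON as well, so the genes were selected on the differences in these comparisons, which are given as a description with no test. The comparison of CRST+RS5 with CON uses the same arrays and is treated in the same way.

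The PL was profiled in 3 groups of male C57BL/6 mice aged 3 months, with 2 arrays per group. CRST+RS5 mice were held in restraint for 2 h a day over 14 days and afterwards for 5 min a day over another 14 days. CRST mice received the restraint of 2 h alone, and CON mice were naive. Each array carried RNA pooled from 6 to 7 animals killed on post-stress day 22, so a replicate here is a pool and not a mouse, and neither the labels nor the methods say how the pooled tissue was cut. The spread between the arrays of a group holds both animal and technical differences.

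Between 12645 and 13407 probes per array were detected, meaning a detection p-value under 0.05, and the median deposited signal lay between 185.6 and 230.02. With 2 arrays in a group, precision is limited for each value below. Signals are given as log2 values normalized by quantiles over the 6 arrays, in which a difference of 1 is a doubling. Of the cortical neuron genes, Tbr1, Fezf2, Cux2 and Etv1 are the only ones of 24 listed that carry a name, and all 4 were detected on all 6 arrays. Their detection alone cannot tell the PL from other tissue that expresses them, so it does not check the tissue label. The array CRST+RS5 replicate 2 stood apart: 53 of its detected probes lay at least 1 log2 unit above the highest of the other 5 arrays, against 0 to 6 on each of the others, and 20 lay at least 2 units above, against 0. Values that rest on this array are therefore given with and without it.

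Secretory epithelia coat their surface with mucins, lipid-binding proteins of the BPI fold family and protease inhibitors with the disulfide core of whey acidic protein. In the nose these are made by Bowman's glands and by supporting cells beside the olfactory neurons, on the far side of the bone from the olfactory bulb. The choroid plexus, a folded epithelium in the ventricles, secretes cerebrospinal fluid through water channels such as Aqp1 and releases transthyretin, the product of Ttr, which carries thyroid hormone and retinol-binding protein. Neither epithelium is part of cortical tissue.

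The promoters of the 4 olfactory secretory genes below are shown because these genes shared their highest array, with differences that ranged from the largest to the smallest of the 5. The windows were matched by symbol in RefSeq, and run from 250 bases before to 50 bases after the annotated start on GRCm38.p6. They are written 5′ to 3′ on the strand of the gene, with matches to the searched motifs in capitals. Vmo1 lies at chr11:70514567-70514866 on the minus strand, and Bpifb4 at chr2:153940612-153940911, Psapl1 at chr5:36203771-36204070 and Muc1 at chr3:89228806-89229105 on the plus strand.
Vmo1: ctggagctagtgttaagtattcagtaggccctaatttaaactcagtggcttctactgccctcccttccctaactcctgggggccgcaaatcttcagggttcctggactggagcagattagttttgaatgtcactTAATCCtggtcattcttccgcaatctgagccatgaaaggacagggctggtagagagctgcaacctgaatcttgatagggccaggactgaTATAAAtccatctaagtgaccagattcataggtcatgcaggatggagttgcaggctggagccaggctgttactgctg
Bpifb4: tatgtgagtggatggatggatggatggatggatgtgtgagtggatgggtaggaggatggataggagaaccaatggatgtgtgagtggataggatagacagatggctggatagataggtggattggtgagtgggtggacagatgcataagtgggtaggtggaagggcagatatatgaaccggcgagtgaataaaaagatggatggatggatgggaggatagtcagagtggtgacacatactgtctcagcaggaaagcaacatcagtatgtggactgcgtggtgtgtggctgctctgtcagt
Psapl1: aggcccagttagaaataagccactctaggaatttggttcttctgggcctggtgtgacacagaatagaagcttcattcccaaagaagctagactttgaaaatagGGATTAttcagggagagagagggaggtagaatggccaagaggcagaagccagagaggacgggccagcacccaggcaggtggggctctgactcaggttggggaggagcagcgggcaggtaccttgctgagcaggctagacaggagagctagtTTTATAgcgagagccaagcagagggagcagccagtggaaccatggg
Muc1: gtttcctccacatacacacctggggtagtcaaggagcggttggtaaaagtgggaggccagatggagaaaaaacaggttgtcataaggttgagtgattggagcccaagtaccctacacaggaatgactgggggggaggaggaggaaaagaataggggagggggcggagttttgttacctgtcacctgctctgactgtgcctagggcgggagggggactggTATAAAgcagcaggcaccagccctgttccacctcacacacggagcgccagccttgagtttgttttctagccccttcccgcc
The letters TATAAA, the core of a TATA box, begin 27 bases before the start in Vmo1 and 31 bases before it in Muc1. In Psapl1 they occur only on the opposite strand at base 5 after the start. TAATCC, the core bound by Otx proteins, begins 116 bases before the start in Vmo1 and, on the opposite strand, 147 bases before it in Psapl1. The window of Bpifb4 holds no match to any of the 7 motifs. Searched on both strands, TATAAA is found in 13.6% and TAATCC in 7.06% of 32851 RefSeq promoter windows. The other motifs searched were TGTTTAC of fork head proteins (3.65%), the Ebf motif (0.904%), CCGGAAG of Ets proteins (8.86%), CAGCTG of E boxes (16.3%) and TGACGTCA, the cAMP response element (1.79%), and the windows shown hold none of them. The motifs do not overlap each other in these windows. A match describes the letters only.
Bpil3, now Bpifb6 in RefSeq, and Bpifb4 are close neighbours on chromosome 2, with Bpifb3 as the only gene listed between them, and Wfdc2 lies farther along the same chromosome.

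Vmo1, the mouse homolog of a protein in the outer layer of the egg's vitelline membrane in chicken, had the most uneven signal of the 8 genes (probe ILMN_2936105). Its log2 signal was 7.46 and 13.38 on the CRST+RS5 arrays, against 7.71 and 7.50 on the CRST arrays and 7.44 and 7.89 on the CON arrays. In deposited units the highest array read 9998 and the other 5 read 162 to 252.08. Only CRST+RS5 replicate 2 was high, and the other CRST+RS5 array lay within the range of CRST and CON and was not detected. The gap of 5.49 between this array and the next, CON replicate 2, was the largest of all 25697 probes. The group mean of CRST+RS5 lay 2.81 above that of CRST and 2.75 above that of CON (SE 1.26 each). Without CRST+RS5 replicate 2 these differences were -0.14 and -0.20. The SE here and below is the moderated one of limma, which draws the spread of each probe toward that of all probes. It can lie well below the spread of a gene's own arrays. For Vmo1 the SD between arrays, pooled over CRST+RS5 and CRST, was 2.96.

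Bpifb4 (probe ILMN_2781850), of the BPI fold family of lipid-binding proteins, had log2 signals of 7.81 and 12.83 on the CRST+RS5 arrays, against 7.89 and 7.75 on the CRST arrays and 7.70 and 7.89 on the CON arrays. It was detected on all 6 arrays, at a level that spread by 0.20 over the 5 arrays other than CRST+RS5 replicate 2. That array stood 4.94 above the next, the second largest gap of all probes. The difference from CRST was 2.50 (SE 1.06) with both CRST+RS5 arrays and -0.0084 without replicate 2.
Bpil3 (probe ILMN_2690657), of the same family, had 7.08 and 10.91 on the CRST+RS5 arrays, against 6.94 and 7.02 on the CRST arrays and 6.97 and 7.13 on the CON arrays. It was detected on CRST+RS5 replicate 2 alone. Both CRST+RS5 arrays lay above both CRST arrays, but replicate 1 did so below detection and lay within the range of CON. Its difference from CRST was 2.02 (SE 0.81).
Psapl1 (probe ILMN_2635197), related to prosaposin, the precursor of lysosomal lipid-binding saposins, had 7.25 and 11.25 on the CRST+RS5 arrays, against 7.30 and 7.16 on the CRST arrays and 7.04 and 7.13 on the CON arrays. It too was detected on CRST+RS5 replicate 2 alone, and its difference from CRST was 2.02 (SE 0.85). With replicate 1 only, the differences of Bpil3 and Psapl1 from CRST were 0.10 and 0.02.
Muc1 (probe ILMN_2928489), a mucin anchored in the apical membrane of epithelia, had 7.41 and 8.38 on the CRST+RS5 arrays, against 7.26 and 7.29 on the CRST arrays and 7.27 and 7.31 on the CON arrays. It had the smallest change of the 5 olfactory secretory genes, 0.62 against CRST (SE 0.22), and was detected only on CRST+RS5 replicate 2. Without that array its difference from CRST was 0.13. Both CRST+RS5 arrays lay above all arrays of CRST and CON.

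Wfdc2 (probe ILMN_1236758), a secreted protein with the whey acidic protein core that is abundant in airway epithelium, had log2 signals of 7.99 and 10.61 on the CRST+RS5 arrays, against 7.79 and 7.66 on the CRST arrays and 7.75 and 7.86 on the CON arrays. It was detected on all 6 arrays, and both CRST+RS5 arrays lay above the other 4. Its difference from CRST was 1.57 (SE 0.56) with both arrays and 0.26 without replicate 2, at the edge of 1.2-fold. The spread of the 5 arrays other than CRST+RS5 replicate 2 was 0.33.
Aqp1 (probe ILMN_2756486), a water channel of choroid plexus epithelium and of red blood cells, had 7.48 and 8.76 on the CRST+RS5 arrays, against 7.30 and 7.42 on the CRST arrays and 7.51 and 7.55 on the CON arrays. Only CRST+RS5 replicate 2 was detected, and replicate 1 lay above CRST and below CON. The difference of 0.76 (SE 0.28) from CRST was 0.12 without that array, and the difference of 0.59 from CON was -0.045.
Bpil3, Psapl1, Muc1 and Aqp1 were not detected on any CRST or CON array, and were also set against a floor, the lowest signal detected on each of these arrays. The CRST+RS5 mean of Psapl1 was 3.05-fold the floor of CRST, and the fold was 2.56 for Bpil3, 1.39 for Aqp1 and 1.19 for Muc1. Against the floor of CON it was 3.06 for Psapl1 and 2.57 for Bpil3. These folds are not strict lower bounds, because the CRST+RS5 mean holds the undetected replicate 1 at its measured value. In each case 1 of 2 CRST+RS5 arrays measured the gene.

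**Figure D1:**
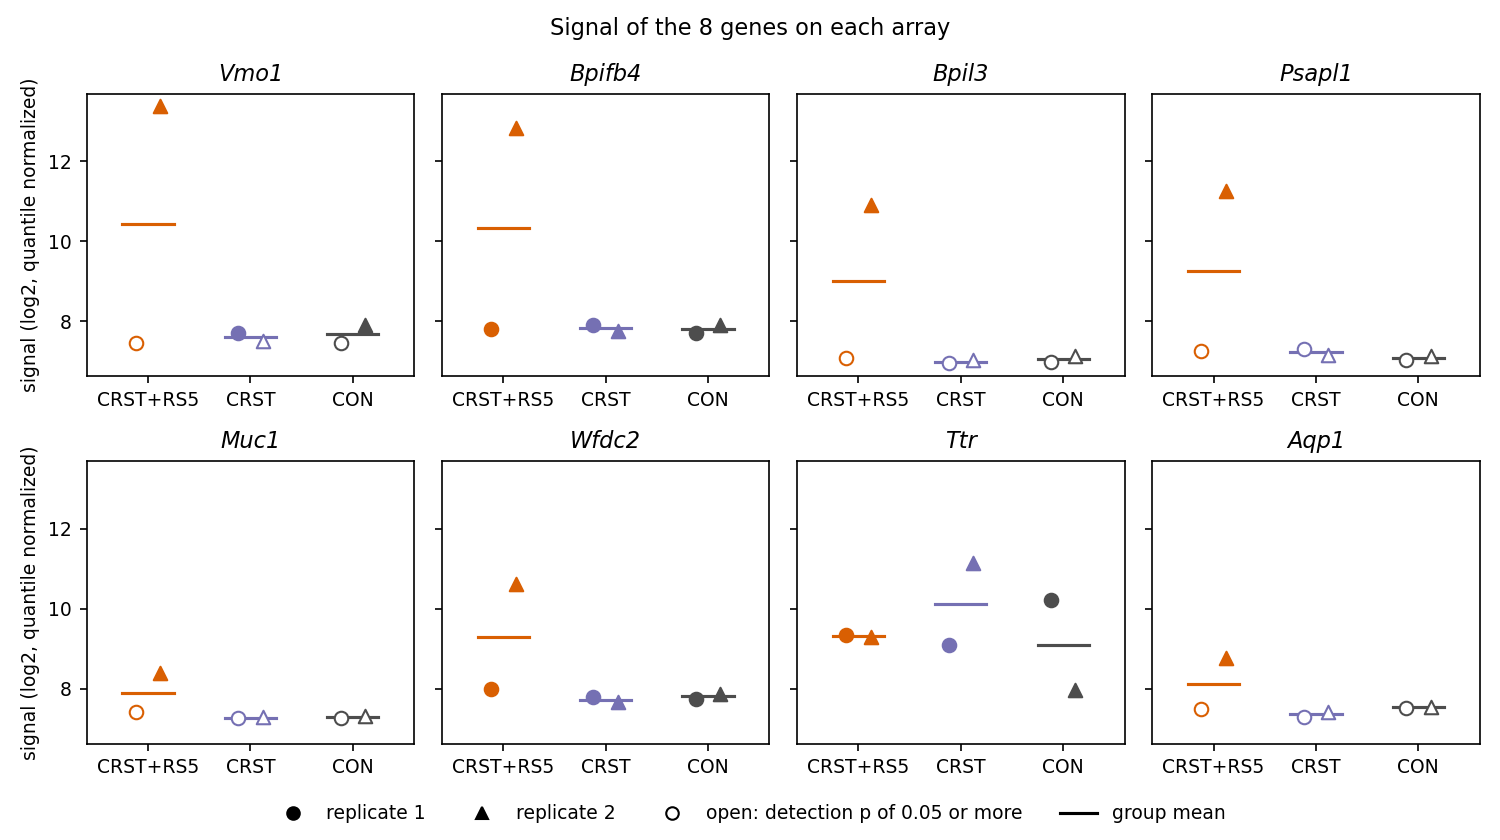
Log2 signal of each gene on the 6 arrays, by group, with replicate 1 as a circle, replicate 2 as a triangle, the group mean as a line and open symbols where the probe was not detected. CRST+RS5 replicate 2 is the highest array for 7 genes, from 8.38 for Muc1 to 13.38 for Vmo1, while Ttr is highest on CRST replicate 2 at 11.16 and lowest on CON replicate 2 at 7.96.

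Ttr (probe ILMN_2443330) did not share this pattern. Its log2 signal was 9.33 and 9.30 on the CRST+RS5 arrays, against 9.08 and 11.16 on the CRST arrays and 10.21 and 7.96 on the CON arrays, and it was detected on all 6. The CRST+RS5 arrays differed by 0.04, while replicate 2 lay 2.07 above replicate 1 in CRST and 2.25 below it in CON. These were the largest differences between replicates of all 25697 probes in either group, where the median probe differed by 0.10 in CRST and 0.09 in CON. The ranges of CRST and CON overlap, and the values of CRST+RS5 lie within both ranges.
The order of the group means was CRST at 10.12, CRST+RS5 at 9.31 and CON at 9.08, and no neighbours in this order differed beyond the spread between arrays. The difference of CRST from CON was 1.03 (SE 0.65), with 2.07 without CRST replicate 1, -0.003 without CRST replicate 2, 2.16 without CON replicate 1 and -0.0895 without CON replicate 2. The difference of CRST+RS5 from CRST was -0.80, with -1.84 without CRST replicate 1 and 0.23 without CRST replicate 2. CRST+RS5 stood 0.23 above CON, with 1.35 without CON replicate 1 and -0.89 without CON replicate 2.
For the other 7 genes the order was CRST+RS5, then CRST and CON, which differed by at most 0.17 in either direction. For Psapl1, higher in CRST by 0.15, and Aqp1, lower in CRST by 0.17, the arrays of CRST and CON did not overlap, but none of these signals was detected. In these bulk samples, fewer cells of a type and less RNA per cell cannot be told apart.

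**Figure D2:**
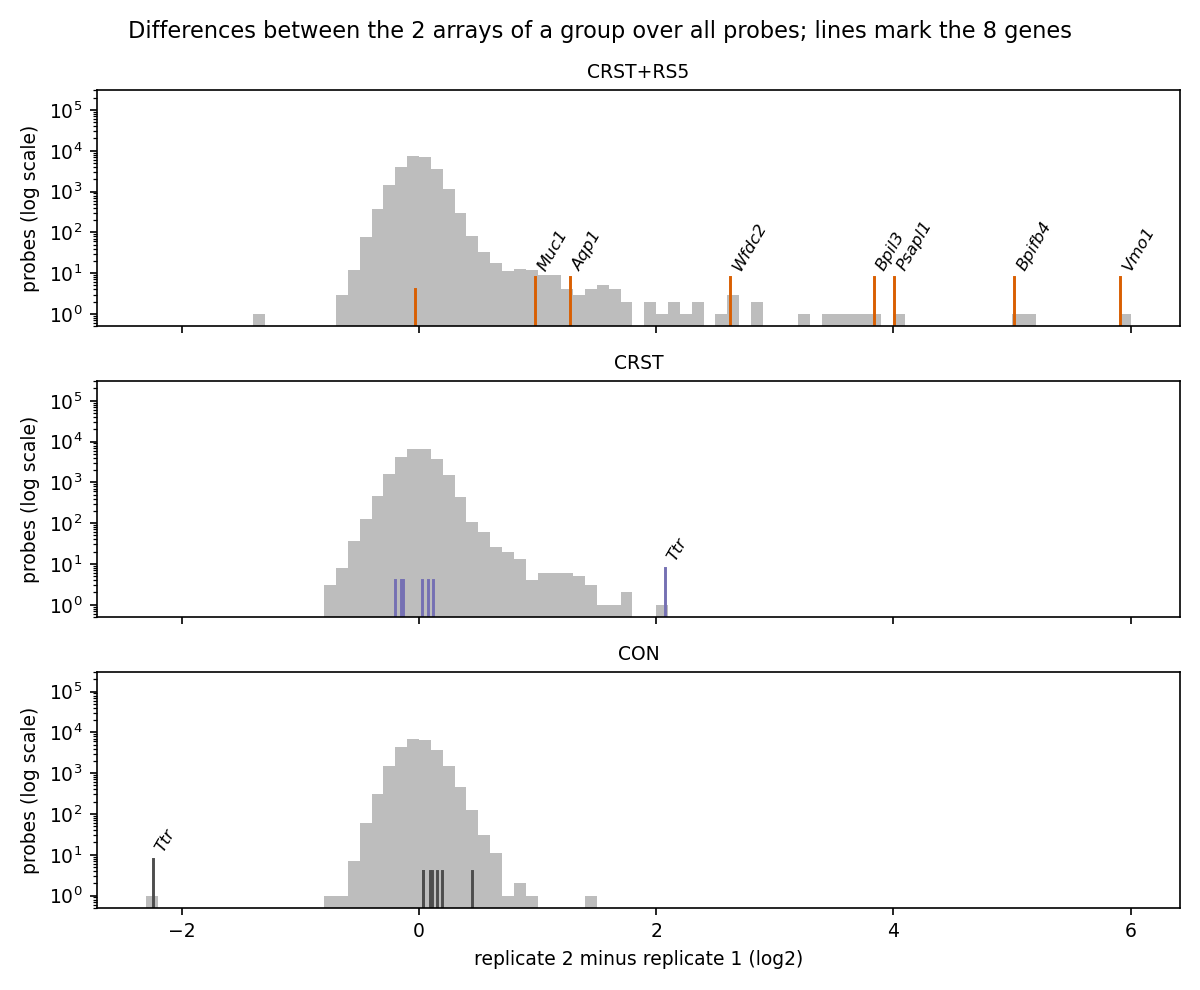
Replicate 2 minus replicate 1 on the log2 scale within each group, as grey bars that count all 25697 probes (log axis), with coloured lines at the 8 genes. In CRST+RS5, Vmo1 at 5.91 is the farthest of all probes, and in CRST and CON it is Ttr, at 2.07 and -2.25.

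By their measured means all 8 genes lay past 1.2-fold in CRST+RS5 against CRST, 7 of them higher and Ttr lower, where 3.11% of all probes did (2.04% higher and 1.07% lower). This count is what the selection required. The gene nearest to the threshold was Muc1, with a measured 1.54-fold. Its 1.19-fold over the floor of CRST lies below the threshold, as its fold over the floor of CON does. For 4 of the 7 higher genes, Bpil3, Muc1, Wfdc2 and Aqp1, the arrays of the groups did not overlap, as for 1.72% of all probes, and for Ttr they did overlap, against 0.833% lower without overlap. Among probes that were likewise at least 1.2-fold higher, 442 of 524 did not overlap, a larger share than that of the 7 genes. In CRST against CON only Ttr, higher, was past 1.2-fold, and the next was Aqp1 at -0.17. Among all probes 1.1% were past it, 0.51% higher and 0.592% lower, and without overlap 0.374% were higher and 0.444% lower, against none of the 8 genes. In CRST+RS5 against CON the same 7 genes were higher and Ttr was within 1.2-fold, at 0.23 (0.54 after background correction by neqc, past the threshold), with 2.7% of all probes past it, 1.84% higher and 0.856% lower. The arrays did not overlap for 3 of them, Psapl1, Muc1 and Wfdc2, against 1.53% of all probes higher and 0.825% lower. Here too the share was larger among all probes at least 1.2-fold higher, where 392 of 473 did not overlap.
The median difference of the 8 genes was 1.80 against CRST and 1.72 against CON, where the median of all probes was -0.0066 and -0.005. Without CRST+RS5 replicate 2 the medians were 0.06 and 0.07, and 2 genes remained past 1.2-fold against CRST, Ttr and, at its edge, Wfdc2, and 0 against CON. Without CRST+RS5 replicate 1 they were 3.41 and 3.33. CRST against CON had a median of -0.04 over the 8 genes. Only Bpifb4, Wfdc2 and Ttr were detected on both arrays of a group.
Across all probes, limma gave 0 probes with an adjusted p under 0.05 in each of the 3 comparisons, with 1650, 860 and 1522 at an unadjusted p under 0.05 in CRST+RS5 against CRST, CRST against CON and CRST+RS5 against CON.

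**Figure D3:**
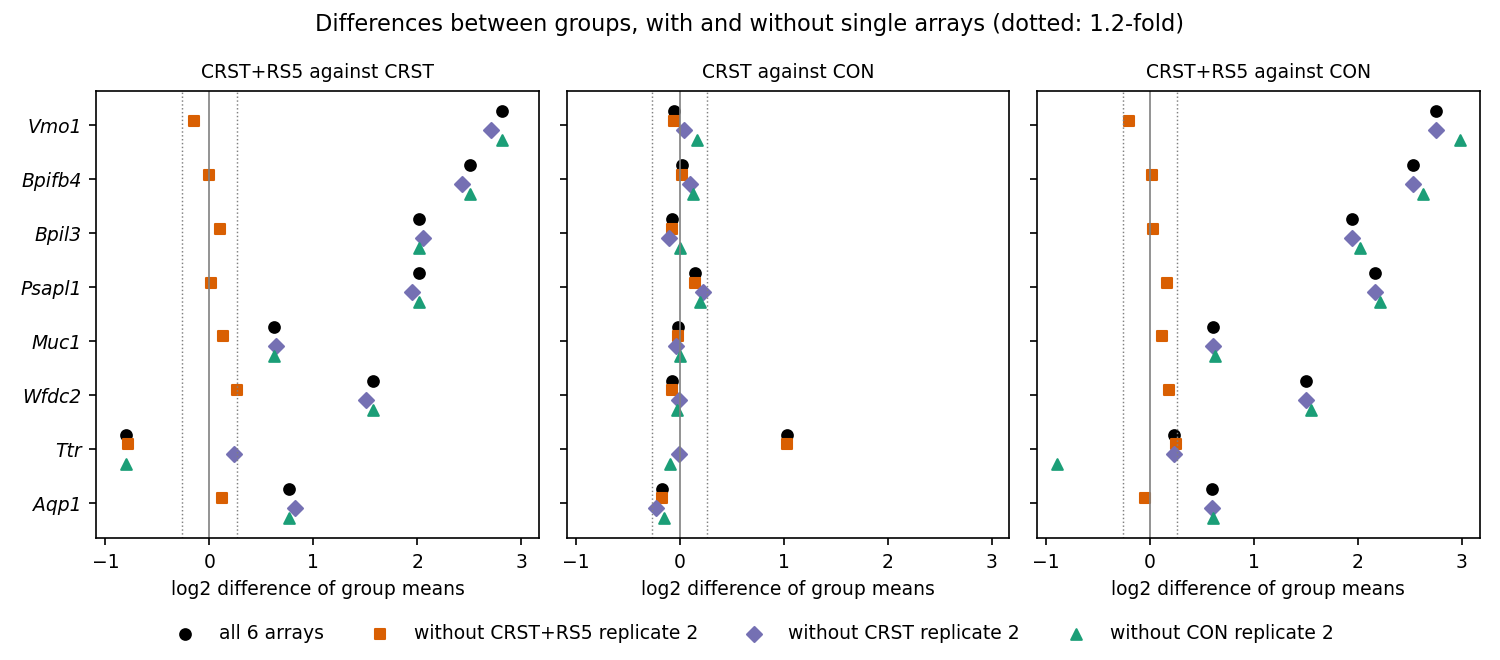
Log2 difference of group means for each gene in the 3 comparisons, from all 6 arrays (black) and with replicate 2 of CRST+RS5, CRST or CON left out, with dotted lines at 1.2-fold. Without CRST+RS5 replicate 2 the 7 higher genes lie between -0.14 and 0.26 against CRST, and without CRST replicate 2 the difference of Ttr in CRST+RS5 against CRST is 0.23 in place of -0.80.

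Other named genes of nasal and airway secretory epithelium were likewise highest on CRST+RS5 replicate 2. Of 58 symbols listed for this epithelium 13 carry a name, through the study's selection on these arrays, 6 of them among the 8 genes, and all 13 had their highest value on that array. All 13 were higher by at least 1.2-fold against CRST and none was past 1.2-fold in CRST against CON. The 6 genes described above made up most of the summed normalized signal on CRST+RS5 replicate 2. They summed to 1112 and 24180 on the CRST+RS5 arrays, against 1103 and 1027 on the CRST arrays and 1008 and 1145 on the CON arrays. The other 7 summed to 2432 and 3473 on the CRST+RS5 arrays, against 2007 and 1857 on the CRST arrays and 1881 and 2263 on the CON arrays, with lysozyme, Lyz, as the most abundant. Without Lyz the other 6 summed to 1112 and 1959 on the CRST+RS5 arrays, against 1056 and 1034 on the CRST arrays and 992 and 1087 on the CON arrays. In summed signal the change of the other genes was thus much smaller than that of the 6. On CRST+RS5 replicate 2 the 6 stood at a median of 3.98 above the mean of the other 5 arrays, and the other 7 at 0.92. By gene the 2 parts overlapped, with Muc1 of the 6 at 1.08 and Rya3 of the other 7 at 1.52. CRST+RS5 replicate 2 was the only array on which 3 of the 6 and 4 of the 7 were detected.
Rya3, of the BPI fold list, was detected on 1 array. It had 7.14 and 8.64 on the CRST+RS5 arrays, against 7.11 and 7.14 on the CRST arrays and 7.16 and 7.07 on the CON arrays. Pltp, a phospholipid transfer protein of the same fold that is expressed in brain, was detected on all 6 arrays and had 8.51 and 8.54 on the CRST+RS5 arrays, against 8.12 and 8.24 on the CRST arrays and 8.13 and 8.39 on the CON arrays. Of the 4 other named aquaporins Aqp3, Aqp4 and Aqp5 were past 1.2-fold against CRST, and Aqp8 was not, at 0.18. Aqp5, of gland cells, had 7.66 and 8.63 on the CRST+RS5 arrays, against 7.63 to 7.81 on the CRST arrays and 7.45 to 7.71 on the CON arrays, so that its replicate 1 lay within the range of both. Aqp3 and Aqp8 were highest on CRST+RS5 replicate 2, at 8.03 and 8.07, and their replicate 1 lay within the range of CRST. Aqp4, the water channel of astrocytes, had 10.98 and 10.55 on the CRST+RS5 arrays, against 10.45 and 10.25 on the CRST arrays and 10.71 and 10.49 on the CON arrays, so that it overlapped with CON. Wfdc1, a relative of Wfdc2, had 9.71 and 9.65 on the CRST+RS5 arrays, against 9.33 and 9.14 in CRST and 9.38 and 9.51 in CON.

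The named xenobiotic-metabolizing enzymes of the olfactory mucosa peaked on the same array as the secretory genes, by unlike amounts. All 14 named of 32 listed were highest on CRST+RS5 replicate 2, where they stood at a median of 1.57 above the mean of the other 5 arrays. In this list and those below, a gene carries a name only through the study's selection on these arrays. The counts, like those of the secretory list, are thus a description, and the share of all named probes highest on this array was not counted. Of the 899 named probes, 45 were detected on it at least 1 log2 unit above the other arrays. On each of the other arrays 0 to 5 were. The listed genes without a name were not read. Cyp2a5, a cytochrome P450 of olfactory supporting cells, had 7.31 and 12.41 on the CRST+RS5 arrays, against 7.42 and 7.53 on the CRST arrays and 7.33 and 8.02 on the CON arrays. Ces3, Cyp2f2 and Cyp2g1 stood 3.52, 3.30 and 2.71 above the mean of the other arrays on CRST+RS5 replicate 2. Ces3 and Cyp2f2 were detected on 1 array and Cyp2g1 on 2, so this mean rests mostly on undetected signals. Gstm2, Ephx1 and Gsta4 stood only 1.08, 0.50 and 0.29 above it. These lay above all CRST and CON arrays on both CRST+RS5 arrays, at 9.61 and 10.19 for Gstm2, 10.26 and 10.58 for Ephx1 and 10.73 and 10.81 for Gsta4. CON replicate 2 was the next highest array for Vmo1, Cyp2a5 and Cyp2g1, at 7.89, 8.02 and 7.79. The same held for Bpil3, Aqp1, Cyp2f2, Ugt2a2 and Cbr2. For Bpifb4 and Psapl1 it was CRST replicate 1, for Muc1 and Wfdc2 CRST+RS5 replicate 1, and for Ces3 CON replicate 1.
Of 28 listed genes of olfactory sensory neurons 5 are named, and 3 were highest on the same array, led by S100a5, a calcium-binding protein of these neurons, which had 7.59 and 9.71 on the CRST+RS5 arrays, against 7.29 and 7.27 in CRST and 7.48 and 8.05 in CON. Cartpt, a neuropeptide gene, stood 2.01 above the mean of the other arrays on it, and Umodl1, detected on 1 array, 0.54. Tmem16b was highest on CRST+RS5 replicate 1, and Slc17a6, a glutamate transporter of many neurons, on CRST replicate 2, with a difference of -0.44 in CRST+RS5 against CRST. Of 7 named genes of olfactory bulb neurons (23 listed) 6 were highest there, with Pcdh21 at 1.10 and Calb2 at 0.86 above the mean of the other arrays, while Scube1 was highest on CON replicate 1 and stood at -0.28. Dlx5, one of the 6, was detected on no array. Of 4 named blood genes 3 were highest there, with the haemoglobin gene Hba-a1 at 0.79, S100a8 of neutrophils at 0.69 and Alas2 of red cell precursors at 0.55. Of these, S100a8 was detected on 1 array. The other haemoglobin gene, Hbb-b2, stood at -0.14 and was detected on no array. Their part in the results of the 8 genes was not tested. The 4 cortical neuron genes had a median of -0.10 in the same measure, and their summed signal was 9163 and 10278 on the CRST+RS5 arrays, against 10376 and 12134 on the CRST arrays and 10826 and 10555 on the CON arrays.

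Ttr departed from the other named choroid plexus genes. Of 46 symbols listed 11 carry a name, and of these 5 were highest on CRST+RS5 replicate 1, 5 on CRST+RS5 replicate 2 and Ttr alone on CRST replicate 2. By the selection 10 were higher and Ttr lower by at least 1.2-fold in CRST+RS5 against CRST, and 1 was higher and 2 lower in CRST against CON. Against CON the same 10 were higher, where 1.84% of all probes were, and Ttr was within 1.2-fold. Igf2, Igfbp2 and Slc13a4 are also on the list of meningeal fibroblasts, and these 3 summed to 9401 and 9336 on the CRST+RS5 arrays, against 3213 and 5361 on the CRST arrays and 4405 and 6674 on the CON arrays. The 6 that are neither shared nor among the 8 genes summed to 1713 and 2181 on the CRST+RS5 arrays, against 1240 and 1528 on the CRST arrays and 1388 and 1396 on the CON arrays. Clic6, a chloride channel protein of this epithelium, had 7.52 and 8.63 on the CRST+RS5 arrays, against 7.38 and 7.82 on the CRST arrays and 7.81 and 7.57 on the CON arrays. Cox8b, detected on 1 array, was 1.33 above the mean of the other arrays on CRST+RS5 replicate 2, and Slc13a4, a sulfate carrier, 1.12 above it. Of the defining genes of this epithelium, Kl, Folr1, Kcne2, Kcnj13, Otx2, Sostdc1 and F5 carry no name here and were not read.
By their median the 28 named genes of meningeal fibroblasts differed in pattern from the 8 genes. This median was high on both CRST+RS5 arrays, at 0.42 and 0.54 relative to the mean of the 6 arrays. It was -0.53 and -0.15 on the CRST arrays and -0.28 and 0.07 on the CON arrays. On the same scale the secretory epithelium list stood at -0.24 and 0.90, against -0.27 and -0.25 in CRST and -0.29 in CON. By gene the meningeal list was mixed. Lum had 7.72 and 8.56 on the CRST+RS5 arrays, against 7.51 and 7.73 in CRST and 7.67 and 7.70 in CON. Gjb6 was highest on CON replicate 2.

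**Figure D4:**
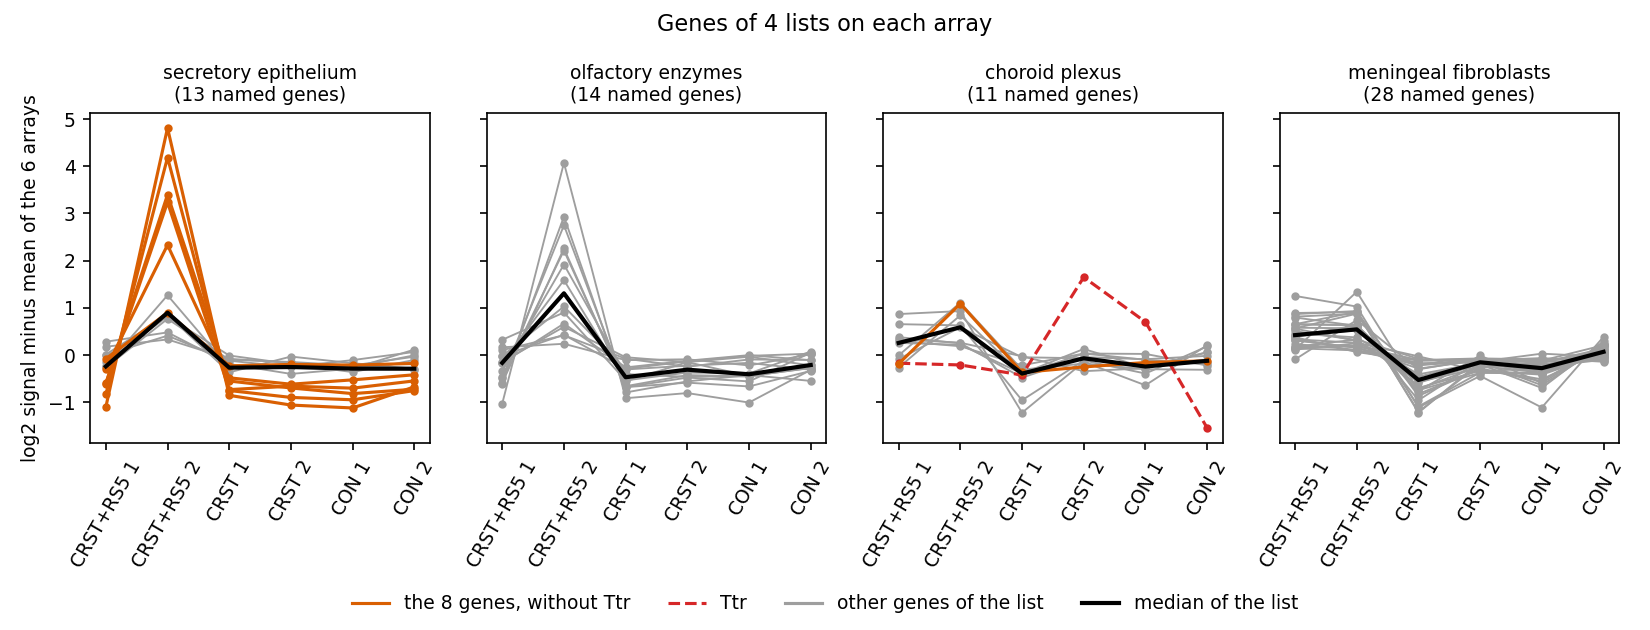
Log2 signal minus the mean of the 6 arrays for the named genes of 4 lists, 1 line per gene, with the genes described here in orange, Ttr dashed in red and the list median in black. The secretory and enzyme lists peak on CRST+RS5 replicate 2, the median of the meningeal genes is high on both CRST+RS5 arrays, and Ttr peaks on CRST replicate 2.

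The patterns most like those of 3 of the genes were sought among 117 named probes that were detected on at least 1 array and spanned at least 1 log2 unit. The likeness is Pearson's r over the 6 arrays, which is set almost wholly by a single array where that array stands apart. Nearest to Vmo1 were Mmp13, a collagenase of bone and cartilage, Cbr2, a carbonyl reductase of airway, Adh1, an alcohol dehydrogenase, Bglap2, an osteocalcin gene of bone-forming cells, and Sftpd, surfactant protein D, with r of 0.997 to 0.9999. Of the 117, 50 reached an r of 0.95. Cbr2 had 7.85 and 10.10 on the CRST+RS5 arrays, against 7.78 and 7.72 in CRST and 7.73 and 7.91 in CON.
Nearest to Aqp1 were Ugt2a2, Ces3 and Cyp2f2 of the olfactory enzymes, Elovl5 and Adfp, with r of 0.991 to 0.996, and 46 reached 0.95. For Ttr none reached 0.95, and among the nearest were the myelin or oligodendrocyte genes Cnp, Mog and Ugt8a, and Pdlim2, with r of 0.71 to 0.79. These were all highest on CRST replicate 2. Mog, a surface protein of myelin, had 9.54 and 9.94 on the CRST+RS5 arrays, against 9.64 and 10.92 in CRST and 9.97 and 9.78 in CON, so that its CON arrays lay closer to each other than those of Ttr.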

How the data were processed

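Gene expression was measured in pooled PL tissue on 6 Illumina mouse Ref-8 version 2 bead arrays. Signals were exported by the authors from GenomeStudio. The deposited table gives a linear average intensity and a detection p-value per probe on every array, and any earlier subtraction of background is not given in the sources used here. A second deposited table holds the authors' quantile-normalized log2 values. Samples were grouped by the condition of their labels.

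Log2 values were computed from the deposited intensities and normalized by quantiles in R 4.3.3 with limma 3.58.1, with no background correction, no detection filter and no pseudocount. Set against the authors' log2 values, they gave r = 0.999996 over all probes. Groups were compared by the difference of means at the study's criterion of 1.2-fold, and over all 25697 probes by the moderated test of limma, adjusted after Benjamini and Hochberg. The step was tested on simulated data.

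Probes were named from the study's 2 lists of selected probes (899 probes, 884 symbols), and 851 matched RefSeq accessions of GRCm38.p6. The columns of fold changes in these lists were not used. The 8 genes and all gene lists were chosen with earlier results of these data known. From each list described, up to 4 named genes with the largest difference of CRST+RS5 replicate 2 from the mean of the other 5 arrays were named, and for the likeness of pattern the 5 nearest probes, of which 1 is not reported here. Aqp4, Slc17a6, Scube1, Dlx5, Igf2, Igfbp2, Lyz, Krt8, Cdh1, Lum, Gjb6, Gstm2, Ephx1 and Gsta4 were singled out after their values were seen. The same holds for the values of Vmo1, Cyp2a5 and Cyp2g1 on CON replicate 2, and for the genes whose next highest array is given beside them. Alternatives covered the normalization, background correction by neqc, 50 added before log2, the authors' table, a detection filter, the threshold, each array left out and the replicate number as a block.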

Additional observations from a re-analysis of the deposited data

How the results depend on the processing

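The counts of the 8 genes past 1.2-fold were the same under scaling to a common median, 50 added before log2, the authors' log2 table and a threshold of 1.5-fold. With a detection filter, which 3 of the 8 genes pass, the counts were 3 in CRST+RS5 against CRST and 2 in CRST+RS5 against CON. Background correction by neqc gave 2 in CRST against CON, where Aqp1 stood at -0.38, and 8 in CRST+RS5 against CON, where Ttr stood at 0.54 in place of 0.23, and raised differences near background, such as that of Muc1 between CRST+RS5 and CRST, which was 1.35. Leaving out 1 array gave 2 to 8 genes in CRST+RS5 against CRST, 0 to 2 in CRST against CON and 0 to 8 in CRST+RS5 against CON. Direction turned without CRST+RS5 replicate 2 for Vmo1 (-0.14 against CRST, -0.20 against CON), Bpifb4 (-0.0084 against CRST) and Aqp1 (-0.045 against CON), and for Ttr without CRST replicate 2 (0.23 for CRST+RS5 against CRST, -0.003 for CRST against CON) and without CON replicate 2 (-0.0895 for CRST against CON, and -0.89 for CRST+RS5 against CON, in which Ttr had been within 1.2-fold).
Without CRST+RS5 replicate 1 the differences were 5.77 for Vmo1 and 5.01 for Bpifb4 against CRST, and 5.71 for Vmo1 against CON. Ttr stood at -1.84 in CRST+RS5 against CRST without CRST replicate 1 and at 2.16 in CRST against CON without CON replicate 1.
Scaling to a common median split all probes past 1.2-fold into 380 higher and 1242 lower in CRST+RS5 against CRST, in place of 524 and 275, and into 265 and 133 in CRST against CON, in place of 131 and 152, and into 347 and 472 in CRST+RS5 against CON, in place of 473 and 220.
Over all probes the limma count of 0 became 1 to 164 in CRST+RS5 against CRST, 0 to 20 in CRST against CON and 0 to 129 in CRST+RS5 against CON with 1 array left out, where the lone array is assumed to vary like the other groups. A fit that took the replicate number as a block called 56 probes in CRST+RS5 against CRST, 0 in CRST against CON and 19 in CRST+RS5 against CON. Arrays of the same number deviated from their group means with r = 0.136, 0.181 and 0.0348 in these comparisons over all probes, and 0.259, 0.247 and 0.0509 over detected probes. The methods describe 2 independent sets of the groups, but no label ties a replicate number to one of them, and the arrays were not treated as paired. The cause of these changes was not tested.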
